A study of Mus musculus with 7 samples.

Results

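Accessible chromatin was examined at 9 genes that build or remodel the extracellular matrix: *Fn1*, *Ccn2* (also written *Ctgf*), *Plat*, *Plau*, *Timp2*, *Timp3*, *Mmp2*, *Mmp9* and *Mmp14*. They were chosen by name for their role in the matrix, with earlier results of these data known. All 9 are among the 21835 protein-coding genes with a peak at a promoter in every list of peaks. The cells were conditionally immortalised mouse podocytes, a line of glomerular epithelial cells that carries a thermosensitive T antigen and was differentiated at the non-permissive temperature. DNase-Seq, in which DNaseI cuts DNA that is free of nucleosomes, compared podocytes kept for 36 h in normal glucose (NG, 5 mM, for which no mimic is named), in high glucose with a non-targeting mimic (HG+NT, 25 mM glucose and 50 nM mimic) and in high glucose with the miR-93 mimic (HG+miR-93, 25 mM glucose and 50 nM mimic). Each condition had 2 replicates, and 1 library of genomic DNA digested with less DNaseI served as input. NG and HG+NT thus differ in glucose and, by the labels, in a mimic, and glucose and mimic cannot be told apart in this step.

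Glomerular scarring in diabetes is an excess of matrix. Fibronectin, encoded by *Fn1*, is a fibrillar glycoprotein of that matrix, and *Ccn2* encodes connective tissue growth factor, a secreted matricellular protein induced by TGF-β. The plasminogen activators of tissue type (*Plat*) and urokinase type (*Plau*) turn plasminogen into plasmin, which degrades matrix and activates other proteases. The metalloproteinases *Mmp2* and *Mmp9* are gelatinases, *Mmp14* is a membrane-bound activator of the *Mmp2* product, and the inhibitors *Timp2* and *Timp3* bind these enzymes.

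The NG list held 1036304 peaks, the HG+NT list 846027 and the HG+miR-93 list 900109, and single replicates were not analysed here. No spread between replicates could be computed, so that no test between conditions was run. Each interval given covers only the counting error of the condition's own fragments. The input's local mean is held fixed in it, so that the counting error of the input is left out. A promoter is 500 nt on either side of any TSS of a protein-coding transcript. Its rank is the percentile, within a list, of the highest fold among the peaks that overlap it, where fold is the authors' ratio of the summit to the local mean of the input. Pileup is the number of fragments at a summit, solved from the fold and p of the peak and scaled to the depth of the input. The 3 lists rested on 2.24, 3.85 and 5.15 times the depth of the input, and the median summit on 6, 10 and 12 fragments. The members' promoters overlapped 20, 15 and 16 peaks, each of which had a single solution and a −log10 q of 0, the value of over 99.9% of all peaks. Peaks are therefore described by their place in the list and are not called as sites. Among podocyte markers, *Synpo*, which encodes synaptopodin, had promoter percentiles above the median in all 3 lists (91.1, 96.3 and 71.4, here and below in the order NG, HG+NT, HG+miR-93), whereas *Podxl*, which encodes podocalyxin, lay at 90.4, 13.6 and 75.9 and *Nphs1*, which encodes nephrin, at 9.99, 55.0 and 64.1. The endothelial marker *Pecam1* lay at 62.7, 68.3 and 87.8, so that promoter rank did not separate podocyte from other markers, and no cell type is assigned from it.

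The sequences below lie under peaks that the results describe. Of the 9 genes, *Timp2*, *Timp3* and *Mmp14* are in the RefSeq promoter table used. For *Timp3* and *Mmp14* the part upstream of the first annotated TSS is given (RefSeq, GRCm38, plus strand), because a promoter peak of every list covers these bases. The *Timp3* stretch is chr10:86300162-86300371 and that of *Mmp14* is chr14:54431348-54431597. The first holds no summit of a *Timp3* promoter peak, and the second holds the *Mmp14* summit of HG+NT alone. The third stretch is the minus strand of chr11:118327794-118327971 in an intron of *Timp2*, the gene's strongest peak under NG and under HG+NT, with 50 bases outside the 2 summits. The HG+NT summit is base 128 of it and the NG summit is base 51. Capitals mark matches, on either strand, to 1 of 5 short motifs.
Timp3 promoter: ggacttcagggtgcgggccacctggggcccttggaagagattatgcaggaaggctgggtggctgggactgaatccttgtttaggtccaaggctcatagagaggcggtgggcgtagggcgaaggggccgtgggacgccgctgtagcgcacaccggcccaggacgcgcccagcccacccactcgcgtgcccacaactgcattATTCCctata
Mmp14 promoter: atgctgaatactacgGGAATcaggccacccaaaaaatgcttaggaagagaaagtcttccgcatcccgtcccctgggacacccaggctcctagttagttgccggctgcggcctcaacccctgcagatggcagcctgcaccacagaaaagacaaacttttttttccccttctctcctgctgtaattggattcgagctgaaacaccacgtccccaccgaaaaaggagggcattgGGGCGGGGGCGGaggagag
Timp2 intron: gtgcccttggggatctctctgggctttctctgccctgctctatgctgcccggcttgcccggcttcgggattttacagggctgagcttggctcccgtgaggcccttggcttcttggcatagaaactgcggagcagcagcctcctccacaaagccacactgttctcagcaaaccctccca

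The motifs searched were the SP1 GC box (GGGCGG), AP-1 (TGANTCA), the TATA box (TATAAA), TEAD (GGAAT) and SMAD (CAGACA), and both strands were read. The matches printed do not overlap each other. Of 32851 RefSeq promoters, counted over 250 bases upstream, 32.7%, 6.75%, 12.4%, 34.2% and 17.1% hold them. The *Timp3* stretch of 210 bases held 1 TEAD match and no GC box, at 63.8% GC. The *Mmp14* stretch of 250 bases held 2 adjoining GC boxes and 1 TEAD match, at 55.2% GC. The *Timp2* intron stretch of 178 bases held none of the 5, at 60.1% GC. Over 500 nt on either side of the outermost TSS, the CpG content (observed over expected) of the members ran from 0.217 at *Mmp9* and 0.279 at *Plat* to 0.688 at *Fn1*, beside a median of 0.561 over all ranked genes. Across all genes, which are not independent, Spearman's rho of promoter rank with CpG content was 0.403 under NG, 0.335 under HG+NT and 0.261 under HG+miR-93.

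**Figure D1:**
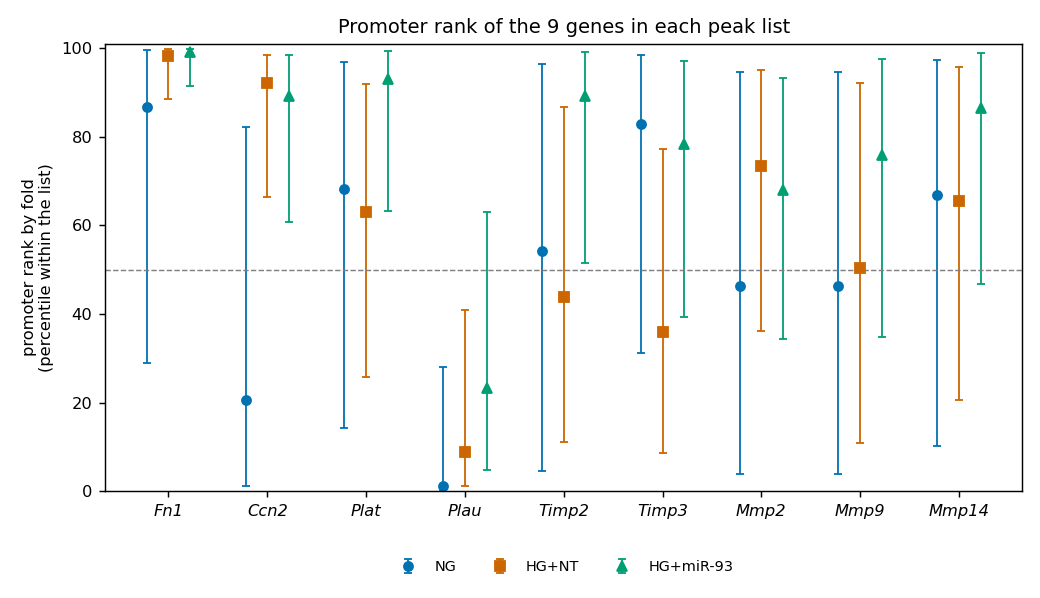
Promoter rank by fold (percentile within each list, vertical axis) of the 9 genes under NG, HG+NT and HG+miR-93. Bars are 95% counting intervals, with the other genes and the input's local mean held in place, and the dashed line is percentile 50. *Fn1* is at the top in each list, *Plau* at the bottom, and *Ccn2* moves from 20.5 under NG to 92.2 under HG+NT.

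By fold, the members as a group stood near the median under NG and above it under HG+miR-93. Their median percentile was 54.2 under NG, 63.0 under HG+NT and 86.6 under HG+miR-93, beside 50.9, 49.9 and 49.8 over all ranked genes. Ranked by pileup, the middle member stood at 47.8 (*Mmp14*), 71.05 (*Timp3*) and 76.5 (*Timp3*). By that measure the larger step was the one to HG+NT. The counts that follow in this paragraph are by fold. From NG to HG+NT, 2 members rose by at least 20 percentile points (*Ccn2* and *Mmp2*) and 1 fell (*Timp3*), where 24.6% of all genes rose and 24.6% fell by as much. From HG+NT to HG+miR-93, 5 members rose (*Plat*, *Timp2*, *Timp3*, *Mmp9* and *Mmp14*) and 0 fell, where 20.046% of all genes rose and 20.1% fell. A reversal between the steps can take 2 forms. A rise under HG+NT followed by a fall under HG+miR-93 was met by 0 members (9.07% of all genes). The other form, a fall followed by a rise, was met by *Timp3* alone (9.54% of all genes). HG+miR-93 gave the highest of the 3 percentiles for 6 of 9 members and the lowest for 0, beside 32.4% and 32.5% of all genes. These steps share the HG+NT list, so that they are not independent of each other.

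The rises of at least 20 points into HG+miR-93 were seen by fold and not by pileup. The log2 change of fold splits into a part from pileup and a part from the input. At *Plat*, *Timp2* and *Timp3* the input's part was 0.556, 0.610 and 0.434, and that of pileup −0.158, −0.104 and 0.00927. At *Mmp9* pileup gave 0.352 and the input −0.0995, between summits 9606 nt apart. At *Mmp14* the parts were 0.118 and 0.0995, between summits 4271 nt apart. Ranked by −log10 p, which also takes in the input, the same 5 members rose and 0 fell. Ranked by pileup, the change in this step lay between −4.94 points (*Timp2*) and 9.32 points (*Mmp14*), and 0 members rose or fell by 20 points, where 5.28% of all genes rose and 5.50% fell. In the step from NG to HG+NT, 4 members rose by pileup and 0 fell, where 9.998% of all genes rose and 10.1% fell. They were *Fn1* (25.5 points), *Plat* (22.2), *Timp2* (29.1) and *Mmp2* (50.1), so that the members that rose by fold and by pileup had *Mmp2* in common. The pileup at the highest summit of a promoter differed little between these lists: the ratio of HG+miR-93 to HG+NT ran from 0.884 at *Fn1* and *Plat* to 1.10 at *Mmp14*, and the median over all promoters was 0.952. The 95% intervals of the pileup overlapped between NG and HG+NT for all 9 members (they were apart at 1.23% of all promoters) and also for all 9 when HG+NT was set against HG+miR-93 (0.426%). At these depths a change in fragments was not detectable at the members' promoters between the mimics.

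**Figure D2:**
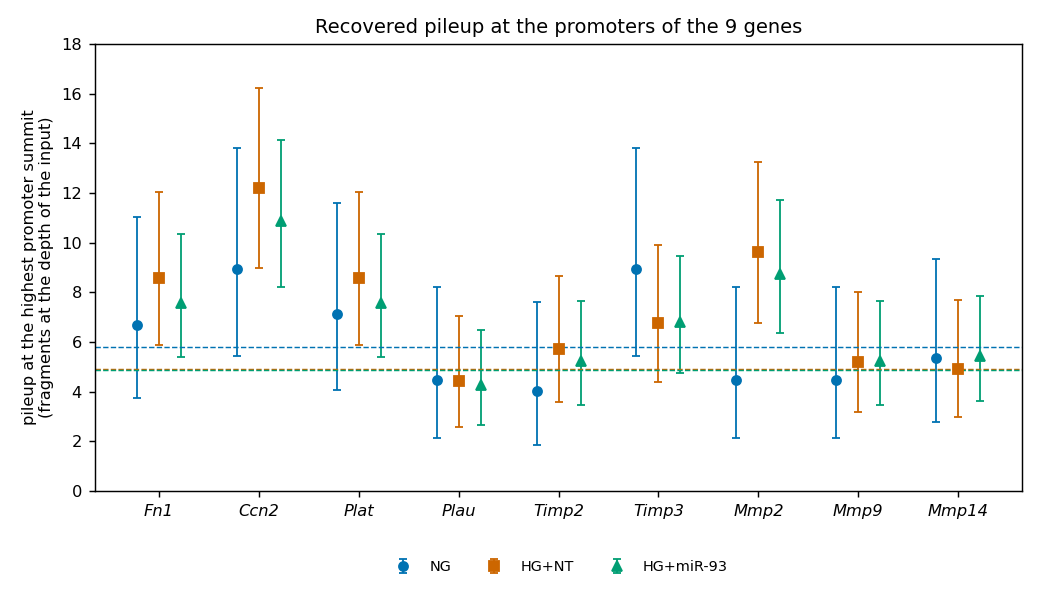
Pileup at the highest promoter summit (fragments at the depth of the input, vertical axis) of the 9 genes in the 3 lists; bars are 95% exact Poisson intervals and dashed lines the medians over all promoters, 5.81 under NG, 4.93 under HG+NT and 4.86 under HG+miR-93. *Ccn2* has the highest point under HG+NT and HG+miR-93, and the intervals of each gene overlap across neighbouring conditions.

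*Fn1* (chromosome 1, 71585520 to 71653200 of GRCm38, minus strand) had the highest-ranking promoter of the members in each condition. Its percentile was 86.7 (interval, 28.8 to 99.7) under NG, 98.4 (88.5 to 99.8) under HG+NT and 99.3 (91.4 to 99.9) under HG+miR-93. In all 3 lists the peak's boundary within the gene was the same base, 71651653. Its summit lay 372 nt downstream of the outermost TSS under NG, in an intron, and 27 nt downstream under HG+NT and 105 nt under HG+miR-93, both in an untranslated exon. The fold was 2.62, 3.42 and 3.30, and by −log10 p (2.45, 3.96 and 3.58) the peak stood at percentiles 99.4, 99.92 and 99.96 of the whole list. It was the strongest peak of the locus in each condition.

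The pileup at the *Fn1* peak was 5.36 (2.77 to 9.36) under NG, 8.57 (5.90 to 12.0) under HG+NT and 7.58 (5.39 to 10.4) under HG+miR-93. Under NG a neighbouring peak 588 nt upstream was higher, at 6.70 (3.75 to 11.1), on an input mean of 3 rather than 1.43. Between the highest summits the ratio of HG+NT to NG was 1.28 (0.676 to 2.53), and that of HG+miR-93 to HG+NT was 0.884 (0.542 to 1.45). The *Fn1* promoter was thus near the top of each list, and neither step moved it beyond its counting interval. The antisense gene *Apol7d* overlaps the 5′ end of *Fn1*, and DNase-Seq does not tell the strands apart.

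*Ccn2* (chromosome 10, 24595442 to 24598683, plus strand), a short gene, showed the largest rise of a member between NG and HG+NT, and it ranked near that level under HG+miR-93. Its percentile was 20.5 (1.06 to 82.1) under NG, 92.2 (66.5 to 98.4) under HG+NT and 89.2 (60.8 to 98.4) under HG+miR-93. The rise from NG to HG+NT, 71.7 points, had a counting interval of 4.91 to 92.1 points. Of the 18 intervals computed (9 genes, 2 steps), it alone left out 0. It does not include the counting error of the input, whose mean was 3 at the NG summit ranked by fold and 4 at the HG+NT summit. Such intervals were computed for the members only, so that the share of all genes with an interval that leaves out 0 is not known. Under HG+NT and HG+miR-93 a single peak of 4346 and 4545 bp spanned the whole gene, with summits 10 nt apart at 241 and 251 nt downstream of the outermost TSS, and pileups of 12.2 (8.97 to 16.2) and 10.9 (8.22 to 14.1). Under NG this stretch was split into a peak with its summit 36 nt upstream of the TSS and a further peak at 1186 nt, and the second had the higher fold.

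The NG summit at the *Ccn2* TSS was not low in fragments. Its pileup was 8.93 (5.46 to 13.8), on an input mean of 6 against 4 at the HG+NT summit, and the ratio of HG+NT to NG was 1.37 (0.794 to 2.43). Ranked by pileup, *Ccn2* stood at percentiles 74.8, 94.6 and 96.1, a rise of 19.8 points into HG+NT. With the folds of all overlapping peaks summed, the rise was 1.87 points, since NG has a pair of peaks where HG+NT has 1. From HG+NT to HG+miR-93 the change was −2.98 points (−32.0 to 24.3), and the ratio of pileups was 0.892 (0.594 to 1.34).

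Of the activators of plasminogen, *Plat* ranked above *Plau* in each list. *Plat* (chromosome 8, 22757727 to 22782844, plus strand) had percentiles of 68.2 (14.3 to 96.9) under NG, 63.0 (25.7 to 92.0) under HG+NT and 93.0 (63.3 to 99.3) under HG+miR-93, with summits 343 nt upstream, 71 nt downstream and 92 nt upstream of its TSS. The rise into HG+miR-93 was 30.0 points (−11.5 to 67.9). It came with an input mean of 2.4 in place of 4 at a summit 163 nt away, with pileups of 7.15 (4.08 to 11.6), 8.57 (5.90 to 12.0) and 7.58 (5.39 to 10.4). By pileup *Plat* stood at percentiles 61.6, 83.8 and 83.5.

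*Plau* (chromosome 14, 20836660 to 20843385, plus strand) was the lowest-ranking member in each list. Its percentile was 1.25 (0.00229 to 28.1), 8.81 (1.06 to 40.9) and 23.2 (4.67 to 63.0), and the folds were 0.911, 1.08 and 1.32, so that under NG the summit did not exceed the input's local mean. The fragments were nevertheless near those of other promoters. Pileups were 4.47 (2.14 to 8.21), 4.41 (2.57 to 7.07) and 4.28 (2.68 to 6.47), at percentiles 38.0, 40.2 and 36.4, on input means of 5, 4 and 3. With a promoter of 1000 nt on either side, the change from NG to HG+NT was −38.1 points in place of 7.56.

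*Timp2* (chromosome 11, 118301069 to 118355740, minus strand) rose into HG+miR-93 by fold and not by pileup. Its percentile was 54.2 (4.57 to 96.5), 43.9 (11.1 to 86.8) and 89.4 (51.6 to 99.3), and the last step was a rise of 45.5 points (−11.7 to 79.8). The summits lay 675 nt downstream, 191 nt upstream and 454 nt downstream of the outermost TSS. The pileup came to 4.02 (1.84 to 7.63), 5.71 (3.58 to 8.65) and 5.25 (3.46 to 7.63), and the input mean at these summits was 1.62, 3 and 1.62. HG+NT was thus the lowest list by fold and the highest by pileup.

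*Timp3* (chromosome 10, 86300372 to 86349506, plus strand) was the member that fell under HG+NT and rose again under HG+miR-93. Its percentile was 82.8 (31.1 to 98.6), 35.9 (8.68 to 77.3) and 78.4 (39.4 to 97.1). The fall was −47.0 points (−78.4 to 19.3) and the rise 42.6 points (−14.4 to 75.6), and both intervals held 0. The summits lay 230, 389 and 69 nt downstream of the TSS, in an untranslated exon. The pileup in the 3 lists was 8.93 (5.46 to 13.8), 6.75 (4.41 to 9.89) and 6.80 (4.74 to 9.46). The ratio of HG+NT to NG was 0.756 (0.406 to 1.43), and that of HG+miR-93 to HG+NT was 1.01 (0.589 to 1.74). The input mean was 3, 4 and 2.7. By summed folds the second step had the opposite sign, −20.3 points.

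*Mmp2* (chromosome 8, 92827291 to 92853420, plus strand) had percentiles of 46.4 (3.78 to 94.7), 73.5 (36.2 to 95.2) and 68.0 (34.3 to 93.4). Under NG the peak taken had its summit 1.18 kb downstream of the outermost TSS. Under HG+NT and HG+miR-93 it was a peak over the second TSS, inside the gene, with summits 34 nt apart in an intron, 20.1 and 20.2 kb downstream of the outermost TSS. The pileup at these intronic summits was 9.61 (6.77 to 13.2) and 8.75 (6.38 to 11.7), against 4.47 (2.14 to 8.21) at the NG summit 18940 nt away. The ratio of HG+NT to NG, 2.15 (1.05 to 4.85), was the only ratio of a member whose interval left out 1 (it did so at 3.95% of all promoters in this step and at 2.24% in the next), and it compares different positions. With summits inside the promoter window alone, the change from NG to HG+NT was −1.50 points.

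The chromosome moved with *Mmp2*. On chromosome 8, the median promoter percentile over 1037 genes was 50.9 under NG, 72.6 under HG+NT and 71.3 under HG+miR-93, and with folds divided by the chromosome's median the rise of *Mmp2* was 7.07 points in place of 27.1. For *Plat*, on the same chromosome, this gave changes of −28.0 points in the first step and 41.0 points in the second. What part the chromosome has in either value was not tested.

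*Mmp9* (chromosome 2, 164940780 to 164955850, plus strand) had percentiles of 46.4 (3.78 to 94.7), 50.4 (10.9 to 92.3) and 75.9 (34.7 to 97.5). The peaks of highest fold lay at different positions: the summit was 8.57 kb downstream of the outermost TSS under NG, 1.49 kb upstream under HG+NT and 8.12 kb downstream under HG+miR-93. The NG and HG+miR-93 peaks overlap the promoter of a second TSS, inside the gene. A further HG+NT peak, of fold 1.24 and with its summit 9.32 kb downstream, overlaps it too. Pileups of these overlapping peaks were 4.47 (2.14 to 8.21), 5.19 (3.17 to 8.02) and 5.25 (3.46 to 7.63). The peak at the outermost TSS itself was weak, with folds of 1.09, 0.918 and 0.747. With summits inside the promoter window alone, the last step was −2.97 points in place of 25.5.

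*Mmp14* (chromosome 14, 54431612 to 54445364, plus strand) had percentiles of 66.9 (10.3 to 97.5), 65.6 (20.6 to 95.8) and 86.6 (46.9 to 98.9). The summit lay 732 nt upstream of the outermost TSS under NG, 54 nt upstream under HG+NT, where it falls on the printed stretch downstream of the TEAD letters, and 4.22 kb downstream under HG+miR-93, in a coding exon of a peak 9823 bp wide. Pileups there were 5.36 (2.77 to 9.36), 4.93 (2.97 to 7.71) and 5.44 (3.62 to 7.86), and all 3 intervals overlap.

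**Figure D3:**
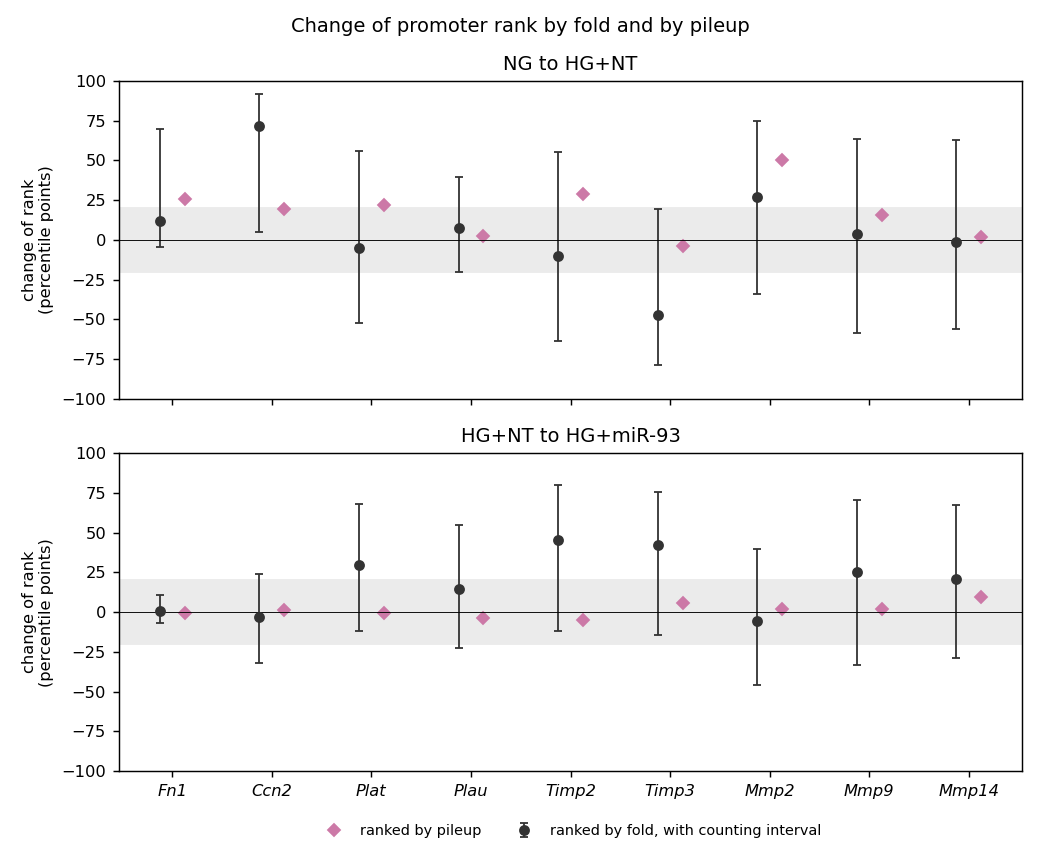
Change of promoter rank (percentile points, vertical axis) of the 9 genes in the step to high glucose (upper panel) and in the step to the miR-93 mimic (lower panel); black points rank promoters by fold, with counting intervals, pink diamonds rank them by pileup, and the grey band spans 20 points on either side of 0. Changes by pileup in the lower panel run from −4.94 to 9.32 points, whereas 5 changes by fold lie above the band.

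Within each list, no neighbours in the order of the members were apart by more than counting error. Under NG the order by fold was *Fn1*, *Timp3*, *Plat*, *Mmp14*, *Timp2*, *Mmp2* level with *Mmp9*, *Ccn2* and *Plau*. Under HG+NT it was *Fn1*, *Ccn2*, *Mmp2*, *Mmp14*, *Plat*, *Mmp9*, *Timp2*, *Timp3* and *Plau*, and under HG+miR-93 *Fn1*, *Plat*, *Timp2*, *Ccn2*, *Mmp14*, *Timp3*, *Mmp9*, *Mmp2* and *Plau*. The intervals of the first and the last gene, *Fn1* and *Plau*, did not overlap in any list.

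A peak in the top 5% of the whole list by −log10 p lay at the promoters of 3 members under NG (*Fn1*, *Plat* and *Timp3*), 4 under HG+NT (*Fn1*, *Ccn2*, *Plat* and *Mmp2*) and 8 under HG+miR-93, which leaves out *Plau*. Over all genes the shares were 38.5%, 40.9% and 37.6%, so that the members' counts were near the background under NG and HG+NT. With the summit inside the promoter, the counts were 3, 3 and 5, beside 30.2%, 30.6% and 26.2% of all genes. The strongest HG+miR-93 peaks of *Mmp2*, *Mmp9* and *Mmp14* had their summits outside it, 3494, 679 and 3393 nt from the nearest TSS. Under HG+miR-93 the lowest of the 8, *Mmp2*, stood at percentile 96.9 of the list and the highest, *Fn1*, at 99.96.

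Across the gene bodies, the members overlapped 161 peaks under NG, 116 under HG+NT and 120 under HG+miR-93. Of these, 14 (8.70%), 12 (10.3%) and 20 (16.7%) were in the top 5% of their list, beside 5.74%, 6.59% and 6.40% of all gene body peaks. They belonged to 4, 7 and 8 members. Peaks of 1 gene are neighbours and are not independent. Of the 14, 12 and 20 peaks, 6, 4 and 4 overlapped a top peak of both other lists, beside 16.2%, 18.2% and 18.1% of all top peaks in gene bodies. In *Plat*, all 6 of its HG+miR-93 peaks were in the top 5%, with pileups from 5.44 to 7.58, against 2 of 12 under NG and 1 of 6 under HG+NT. *Plau* had none in any list. Of the 20 under HG+miR-93, *Plat* held 6 and *Mmp2* 3. Both genes lie on chromosome 8, whose median promoter percentile was 50.9, 72.6 and 71.3 in the 3 lists. What part the chromosome has in these counts was not tested.

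**Figure D4:**
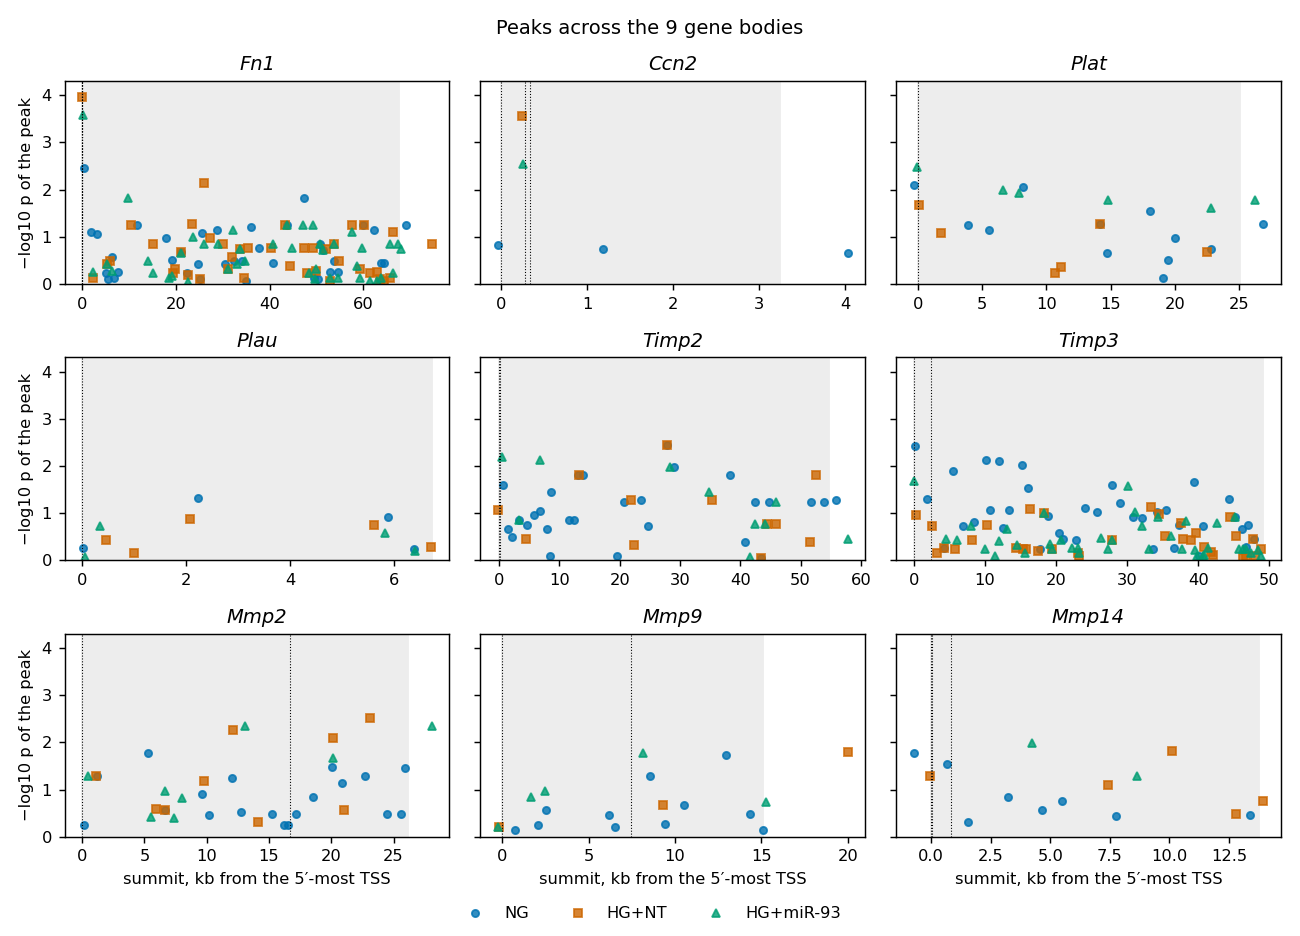
Summits of all peaks that overlap the 9 gene bodies, by distance from the outermost TSS (kb, horizontal axis) and −log10 p (vertical axis), for NG, HG+NT and HG+miR-93; grey marks the gene and dotted lines its protein-coding TSSs. *Fn1* has its strongest peak at the TSS in each list, at −log10 p of 2.45, 3.96 and 3.58, whereas *Timp2* has its strongest NG and HG+NT peaks inside the gene.

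The strongest *Timp2* peak under NG and HG+NT was intronic. Its summits lay 27.8 kb and 27.9 kb downstream of the outermost TSS, on the printed stretch, and the HG+miR-93 summit of the overlapping peak lay at 28.3 kb. The −log10 p was 2.45 under NG and 2.45 under HG+NT, at percentiles 99.4 and 99.6 of the lists, and 1.98 under HG+miR-93, at 99.2. Pileups at these summits were 5.36 (2.77 to 9.36), 5.19 (3.17 to 8.02) and 5.64 (3.77 to 8.09), close to that of the *Timp2* promoter in each list. This was one of the places where top 5% peaks of all 3 lists overlapped by at least 1 bp. The NG peak (118327219 to 118329118) lay inside wider peaks of HG+NT (118322857 to 118333081) and HG+miR-93 (118322857 to 118336184). With a reciprocal overlap of 50%, 1 top NG peak of the members was shared with both other lists, in place of 6. A second such place, 13.1 kb to 14.0 kb downstream under NG and 13.2 kb under HG+NT, lay within 1 kb of a TSS of *Cep295nl*, a gene nested in *Timp2*, and the overlapping HG+miR-93 peak had its summit at 6.78 kb.

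*Fn1* and *Timp3* were the members with at least 10 summits more than 500 nt from a TSS in each list, as were 7349 genes in all. Over 37, 32 and 40 such summits, *Timp3* had a mean pileup of 4.77, 3.68 and 3.51, at percentiles 99.8, 92.0 and 87.1 of these genes. The single summits ran from 2.23 to 8.04 (SD, 1.38) under NG, from 1.56 to 6.75 (SD, 1.08) under HG+NT and from 1.75 to 5.05 (SD, 1.08) under HG+miR-93. The input was also high there: its mean at the summits, 3.01, 3.67 and 3.50, stood at percentiles 99.4, 99.9 and 99.7. By mean fold, *Timp3* stood at 96.8 under NG and at 8.27 and 14.8 under HG+NT and HG+miR-93. *Timp3* lies within *Syn3*, on the opposite strand, so that the same peaks belong to the body of both genes. *Fn1*, over 36, 39 and 41 summits, had a mean pileup of 2.97, 2.66 and 2.55, at percentiles 62.6, 48.0 and 45.5, beside medians of 2.86, 2.69 and 2.63 over these genes.

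The median of other matrix genes under HG+miR-93 was nearer to that of all genes. Of 65 ranked genes, 25 rose and 13 fell by at least 20 points in the step to HG+NT, and 20 rose and 10 fell in the step to HG+miR-93, with medians of 46.4, 59.0 and 59.7. *Mmp1a* had no peak in at least 1 list. Among 19 other metalloproteinases, 5 rose and 4 fell in the first step, and 7 rose and 5 fell in the second. The highest by mean percentile were *Mmp15*, a membrane-bound enzyme (54.6, 96.7 and 91.2), and *Mmp23* (79.0, 86.5 and 69.3). Of 10 other inhibitors and genes of the plasminogen system, 6 rose and 1 fell, then 2 rose and 0 fell. The highest were the plasminogen receptor *Plgrkt* (79.4, 63.9 and 48.5) and *Lrp1*, which clears protease-inhibitor complexes (28.7, 64.6 and 87.8).

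Of 5 other CCN genes, 2 rose and 1 fell in the first step and 1 rose and 1 fell in the second, with *Ccn4* (68.1, 97.5 and 95.7) and *Ccn5* (30.7, 82.9 and 52.9) the highest. Of 9 ADAM and ADAMTS genes, which encode sheddases and proteoglycan-cleaving enzymes, 4 rose and 0 fell, then 2 rose and 0 fell. *Adam12* (72.3, 95.5 and 77.1) and *Adam9* (59.0, 98.8 and 83.6) led them. Of 16 glycoproteins, 6 rose and 6 fell, then 7 rose and 1 fell, with *Thbs3* (95.6, 63.0 and 88.6) and *Tnc* (68.1, 87.3 and 86.7) the highest. Of 6 crosslinking enzymes, 2 rose and 1 fell, then 1 rose and 3 fell, with the lysyl oxidase genes *Loxl4* (40.6, 88.6 and 97.6) and *Loxl3* (70.5, 83.3 and 57.4) the highest.

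By the distance between percentiles over the 3 lists, the matrix gene nearest to *Fn1* was *Ccn4* (19.0 points), and the nearest to *Ccn2* was *Thbs1*, which encodes thrombospondin 1 (17.3 points), at 32.5, 99.0 and 99.6. *Mmp24* was nearest to *Timp2* (9.33 points) and *Mmp11* to *Timp3* (24.9 points). The elastin gene *Eln* was 1.47 points from *Mmp2*, at 46.4, 74.5 and 66.9. These distances rest on 3 lists and are a description.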

How the data were processed

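The deposited data are 3 lists of DNase-Seq peaks, each named as a joint set of the 2 replicates of a condition. Upstream, reads had been trimmed (TrimGalore!), aligned to mm10 (Bowtie) and rid of duplicates, after which MACS2 compared each condition with the input; CASAVA 1.8.2 is in the submitters' processing notes. The authors' fold is the ratio of summit to local input, each plus 1, and both their −log10 p and their −log10 q come from a Poisson model. Widths, summits and these values were used as deposited. Sample groups came from the labels.

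Fragments and input mean were solved from fold and p with the input mean in steps of 0.02 or at the background of 1.43, a rule chosen after the values had been seen. A solution was found for at least 99.9% of the peaks of each list. On 1500 simulated peaks per depth, 100% of fragment numbers were recovered, and at most 0.4% of mismatched pairs had a solution. The simulated peaks were made with the same formulas and the same steps of the input mean. Their recovery checks the calculation and cannot show whether the deposited input means lie on these steps. Promoters were taken from 58745 protein-coding transcripts of GENCODE vM21. Overlaps needed 1 bp. Intervals are 95%: exact Poisson for pileups, Clopper-Pearson for ratios of pileups, and for changes of percentile the square root of summed squared distances to both limits. Conditions were not tested against each other, because each has 1 list.

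The members and the other gene lists were chosen with earlier results of these data known. Genes named are the 9 members, the 2 genes of each other list with the highest mean percentile, the gene nearest in pattern to a member, and markers. *Apol7d*, *Cep295nl* and *Syn3*, which overlap members, and *Mmp1a*, which was not ranked, fall outside this rule and were named after their values had been seen. Alternatives were ranking by −log10 p or pileup, summits inside the promoter, 1000 nt windows, summed folds, a −log10 p of at least 1, fold over the chromosome median, the top 1%, a reciprocal overlap of 50%, mean fold and all summits. Splits of a change of fold, intervals of ratios and top peaks with summits inside the promoter were added after the data had been seen. The tools were scipy 1.17.1, numpy 2.4.6, pandas 2.3.3, pysam and matplotlib 3.10.9 under Python 3.11.15. Some genes, markers among them, are not reported here.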

Additional observations from a re-analysis of the deposited data

How the results depend on the processing

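No paired analysis was possible because each list joins the replicates of a condition, and leaving out a replicate was not possible for the same reason. Counting error limits single promoters, with 6 to 12 fragments at the median summit. The members that rose from NG to HG+NT, 2 by fold, were 4 by pileup and 1 with summits inside the promoter, by summed folds and by fold over the chromosome median. Those that fell in this step, 1 by fold, were 0 by pileup and 2 with windows of 1000 nt and by fold over the chromosome median. Those that rose in the step to HG+miR-93, 5 by fold, were 0 by pileup, 2 by summed folds and 3 among the 5 members left at a −log10 p of at least 1. Those that fell, 0 by fold, were 1 by summed folds. Members that reversed, 1 by fold, were 0 by pileup and by summed folds, and 2 by fold over the chromosome median. Ranking by −log10 p gave the main count in each case.

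Of 116 recomputed changes of promoter rank, 21 had the opposite sign, 6 among the 51 of changes of at least 20 points by fold and 15 among the 65 of smaller ones. The 6 were, in the step to HG+miR-93, *Plat* (−0.298 points) and *Timp2* (−4.94) by pileup, *Mmp9* (−2.97) with summits inside the promoter and *Timp3* (−20.3) by summed folds, and, in the step to HG+NT, *Mmp2* with summits inside the promoter (−1.50) and by summed folds (−4.25). Of the 15 smaller ones, 7 turned by pileup, of which *Timp2* (29.1) and *Plat* (22.2) then passed 20 points in the step to HG+NT, 3 with summits inside the promoter, 2 by summed folds, and 1 each by −log10 p (*Mmp9*), with 1000 nt windows and by fold over the chromosome median. Outside the counting interval of the main change lay *Mmp2* in the step to HG+miR-93 with summits inside the promoter (65.2), and, in the step to HG+NT, *Plau* with 1000 nt windows (−38.1) and by summed folds *Fn1* (−7.76) and *Ccn2* (1.87). Promoter peaks in the top 5% with their summits inside the promoter, chosen after the data had been seen, were found for 5 members in place of 8 under HG+miR-93. By mean fold, the gene body of *Timp3* changed by −88.5 points from NG to HG+NT in place of −7.75, and that of *Fn1* by 24.7 in place of −14.6. In the top 1%, gene body peaks of the members numbered 3, 7 and 11 in the order of the conditions, of which 2, 5 and 5 overlapped another list, where the top 5% gave 9, 9 and 12. A reciprocal overlap of 50% gave 3 for NG. Apart from what the construction of an alternative shows, the cause was not tested. Pileup intervals that do not overlap numbered 0 with the fewest and with the most fragments. Each of the members' promoter peaks had a single solution, so that this alternative could not differ from the main count.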
